A study of Mus musculus with 8 samples.

Results

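The comparison pooled the 4 hippocampal RNA-seq libraries of Pyk2 mutant mice and set them against the 4 libraries of wild-type controls, and asked which changes shared by both mutants lay in genes whose measurement is simple. Such genes were chosen by 3 conditions, none of which sets a limit on expression level. The conditions were a transcript length of at least 2000 bases in the mutant tables, a gene span that overlaps no other gene span, and whole expected read counts. Whole meant within 0.01 in all 4 mutant libraries, taken as a sign that no read was divided between loci. The whole-count condition used mutant counts only, and low counts can meet it, so it may depend on the mutant level. Of 17596 genes matched by symbol, 3831 met all 3 conditions, and 2792 of these were among the 12897 genes that were tested because their mean FPKM reached 1. They are called the long single-copy genes below, and the class in the plots. A subset of 445 of them, with 218 tested, had 1 transcript in the GENCODE M21 reference and 1 in the mutant tables, with lengths that agree within 1.2 times (single-transcript genes).

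All mice were C57BL/6. The mutants were CRISPR knockouts of Pyk2 (KO, 2 libraries) and mice with a Y402F substitution made by CRISPR (Y402F, 2 libraries), and each line had its own 2 wild-type libraries (KO controls and Y402F controls). Age, the number of animals per library and the stretch of the gene that the knockout removed are not given in the sources used here, and p-values reflect only how far these libraries spread, in which technical variation may have a part. The mutant files and the control files are tables of different kinds, so genotype and table type cannot be told apart in any value of the pooled comparison. The mutant libraries held 5756180 to 6017219 expected counts, and the depth of the control libraries is unknown.

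Pyk2 is a calcium-activated cytoplasmic tyrosine kinase of the focal adhesion kinase family. It phosphorylates itself on a tyrosine, which creates a docking site for Src family kinases, and it also acts as a scaffold through proline-rich and C-terminal regions. In hippocampal neurons it is abundant in dendrites and spines, where it binds PSD-95 and is linked to NMDA receptor signalling and synaptic plasticity. Y402F replaces that tyrosine and leaves the rest of the protein in place.

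Ptk2b, which encodes Pyk2 (Entrez 19229; chr14:66153257-66281052 on GRCm38), is itself a long single-copy gene. In FPKM divided by a median-of-ratios factor per library (scaled FPKM), its level was 56.1 and 68.7 in KO, 354 and 396 in Y402F, 309 and 308 in KO controls, and 324 and 317 in Y402F controls. The KO libraries lay below every control and the Y402F libraries above every control. The pooled log2 difference of -1.04 (SE 0.07, limma adjusted p = 1.21e-05) is therefore the mean of -2.29 in KO and 0.22 in Y402F, and Ptk2b was not a shared change. With libraries scaled on the single-transcript genes instead, the KO difference was -2.71 and the Y402F difference -0.18 (limma adjusted p = 0.233), the pooled difference was -1.44, and all 4 mutants lay below all controls, so the direction in Y402F and the shared call depend on the scaling. All log2 differences are on the log2(scaled FPKM + 1) scale, which understates changes of genes with low values. Its paralog Ptk2, which encodes focal adhesion kinase, failed the overlap condition. Ptk2 was at 21.7 and 20.2 in KO, 21.7 and 21.3 in Y402F, 34.7 and 24.8 in KO controls, and 26.8 and 21.4 scaled FPKM in Y402F controls, and its pooled difference of -0.31 did not pass the test (limma adjusted p = 0.0645). Scaled on the single-transcript genes it was -0.70 (limma adjusted p = 0.00153), a shared change called also in Y402F (-0.53, limma adjusted p = 0.0414), and with FPKM scaled to an equal total over the joined genes it was above 0, at 1.15.

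Across all tested genes, 6474 were called in the pooled comparison (limma, Benjamini-Hochberg adjusted p under 0.05), which is 50.2% of the tested genes, 3002 of them higher in the mutants (23.3%) and 3472 lower (26.9%). Among the long single-copy genes 1333 of 2792 were called, 694 higher and 639 lower, a share of 47.7%. A change was counted as shared where all 4 mutant libraries also lay on one side of all 4 controls. Shared changes numbered 5159 over all tested genes, or 40.0%. The long single-copy genes held 1060 of them, a share of 38.0% that was near that background. Of the long single-copy genes 565 or 20.2% were shared rises and 495 or 17.7% shared falls, beside 18.9% and 21.1% of all tested genes. Of these 1060, 518 were also called against the own controls of each line, 195 higher and 323 lower. Over all tested genes 2983 or 23.1% met this rule, 9.06% higher and 14.1% lower. The 3 conditions on the genes thus left the share of called genes about where it stood, while the extremes were smaller. The pooled differences of the long single-copy genes ran from -6.39 to 1.54, and those of the other 10105 tested genes from -9.88 to 7.55. Levels were alike, with a median of 10.3 scaled FPKM in the long single-copy genes and 10.9 outside them. Fewer cells of a type and less RNA per cell cannot be told apart in bulk tissue.

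The sign of the pooled difference followed the number of transcripts that the reference lists for a gene, a property that the conditions did not use. Long single-copy genes with 1 reference transcript had a median difference of 0.33 (n = 254 genes, 134 called higher and 3 lower). The median was 0.29 with 2 transcripts (n = 318), 0.15 with 3 to 4 (n = 729) and -0.04 with 5 to 8 (n = 968). With 9 or more transcripts it was -0.39 (n = 523), and 38 genes were called higher and 270 lower. Both lines showed this order, from 0.35 to -0.33 in KO and from 0.31 to -0.46 in Y402F. Outside the long single-copy genes the same medians ran from 0.28 to -0.42. As a description over the 2792 genes, which share libraries and tables, Spearman's rho between transcript number and pooled difference was -0.49.

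**Figure D1:**
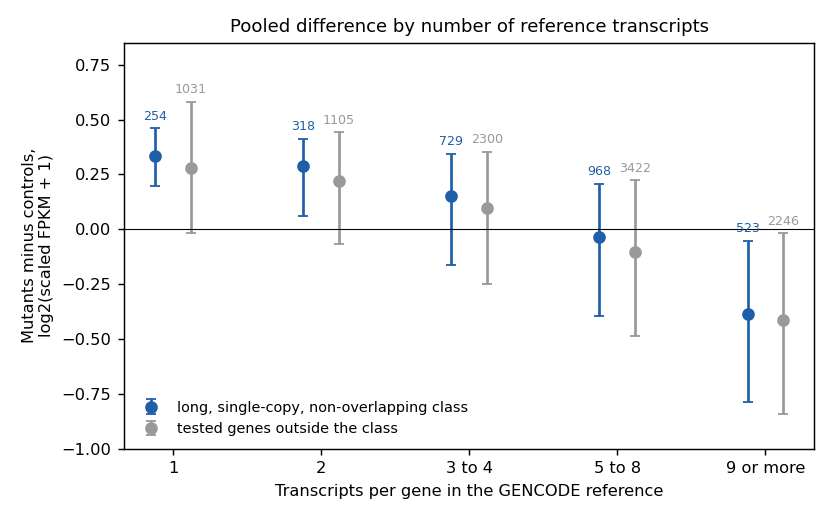
Median pooled difference (points) with the 25th to 75th percentile (bars) by number of reference transcripts per gene, on the log2(scaled FPKM + 1) scale; numbers above the bars count genes. In the long single-copy genes (blue) the medians go from 0.33 with 1 transcript to -0.39 with 9 or more, and the other tested genes (grey) follow the same order.

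The length of the shortest reference transcript of a gene gave a second ordering. Long single-copy genes with a reference transcript under 300 bases had a median difference of -0.42 (n = 189 genes), and those with a shortest transcript of 300 to under 500 bases had -0.17 (n = 1067). The median was 0.07 at 500 to under 1000 bases (n = 863), 0.21 at 1000 to under 2000 bases (n = 187) and 0.32 where no transcript was shorter than 2000 bases (n = 486). Within genes of 5 to 8 transcripts the medians went from -0.32 (n = 85) with a transcript under 300 bases to 0.25 (n = 28) with none under 2000 bases. Within genes whose shortest transcript has 300 to under 500 bases, they went from 0.29 with 2 transcripts (n = 44) to -0.45 with 9 or more (n = 336). Not every range showed these orders. With 2 transcripts the medians were 0.29, 0.22, 0.21 and 0.34 as the shortest transcript grew from 300 bases to 2000 or more, and at 1000 to under 2000 bases they were 0.21, 0.23 and 0.20 for 2, 3 to 4 and 5 to 8 transcripts. The difference also went with the length in the mutant tables, among genes that met the other conditions. The median was -0.31 under 1000 bases (n = 425), -0.08 at 1000 to 2000 (n = 1285), 0.00 at 2000 to 3000 (n = 1128), 0.09 at 3000 to 5000 (n = 1189) and 0.10 above 5000 bases (n = 475). Just outside the length condition, at 1900 to 2000 bases, it was -0.07 (n = 139), and just inside, at 2000 to 2100 bases, -0.01 (n = 135). Each of these is a description of the joined tables, and a part of genotype in them cannot be told apart from the kind of table.

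The deepest falls among the long single-copy genes are given first. The 12 largest shared falls had 4 to 34 reference transcripts, and limma adjusted p between 2.36e-07 and 5.31e-05. Of all 2792 long single-copy genes, 968 have 5 to 8 reference transcripts and 523 have 9 or more. In 10 of the 12 the transcript length used in the mutant tables lay within 1.2 times the longest reference transcript. All 12 were called lower in the mutants under each of the 4 other scalings of the libraries that were tried, and with FPKM scaled to an equal total over the joined genes 10 of them were also shared changes.

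Nbr1, a receptor that brings ubiquitinated cargo to autophagosomes (chr11:101552149-101581951), fell the most. Its scaled FPKM was 40.8 and 34.4 in KO, 38.5 and 37.9 in Y402F, 1948 and 5987 in KO controls, and 2446 and 3954 in Y402F controls. The mutant values were close together and the control values were spread over a 3-fold range. The pooled difference was -6.39 (SE 0.31, limma adjusted p = 1.28e-06), and the reference lists 21 transcripts for Nbr1, the shortest of 63 bases.

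Hnrnph1, an RNA-binding protein of splicing (chr11:50376990-50386528), was at 63.4 and 50.3 scaled FPKM in KO and at 70.4 and 50.1 in Y402F. KO controls had 458 and 552 and Y402F controls 590 and 678. The pooled difference was -3.26 (SE 0.13, limma adjusted p = 3.74e-07). The mutant tables used 0.49 of the length of its longest reference transcript, and the reference lists 18 transcripts.

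Several further falls were in enzymes and subunits of basic cell functions. Qars, the glutaminyl-tRNA synthetase with 34 reference transcripts, was at 15.2, 16.4, 18.1 and 19.6 scaled FPKM in the mutants and at 85.8, 77.5, 93.4 and 81.1 in the controls. Med28, a subunit of the Mediator complex, was at 11.6, 12.7, 11.5 and 11.8 in the mutants, against 68.2 and 75.7 in KO controls and 46.6 and 47.5 in Y402F controls. Both genes had mutant values within a narrow band and controls at least 3 times as high. Their pooled differences were -2.22 (SE 0.08) for Qars and -2.20 (SE 0.08) for Med28.

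Micos10, a subunit of the complex that shapes mitochondrial cristae, was at 19.5 to 25.8 scaled FPKM in the mutants and at 92.9 to 157 in the controls. Metap2, a methionine aminopeptidase, was at 12.9 to 16.4 and 59.2 to 81.7. Arpp19, a phosphoprotein that inhibits protein phosphatase 2A, was at 18.8 to 27.2 and 83.1 to 152. Abcf3, an ATPase of the ABC-F family, was at 13.3 to 16.6 and 65.1 to 114, and none of these 4 genes overlapped between mutants and controls.

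Ppcdc, an enzyme of coenzyme A synthesis, and Hemk1, a methyltransferase of mitochondrial release factors, were low in the mutants, at 1.6 to 2.73 and 2.16 to 3.13 scaled FPKM. Their controls were at 12.9 to 18.7 and 16.8 to 28.0. Prss36, a serine protease, had the most unequal controls, with 32.8 and 23.5 in KO controls and 4.79 and 10.5 in Y402F controls, against 1.12 to 2.49 in the mutants. Saxo2, a microtubule-associated protein, rested on 3 to 7 expected counts per mutant library (0.191 to 0.455 scaled FPKM), against 4 to 6.21 scaled FPKM in the controls.

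The rises were smaller, and the transcript numbers of their genes overlapped those of the falls. The 12 largest shared rises had 1 to 7 reference transcripts, pooled differences of 0.97 to 1.54 and limma adjusted p between 1.33e-05 and 0.00141. In 3 of the 12 the mutant tables used a length within 1.2 times the longest reference transcript, and in the other 9 they used a shorter one. Since FPKM divides by length, the values of those 9 depend on which length each table used, and that part was not tested.

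Kpna2, an importin alpha that carries proteins into the nucleus (chr11:106988629-106999541), rose the most. Its scaled FPKM was 16.8 and 11.2 in KO, 13.4 and 13 in Y402F, 3.74 and 4.37 in KO controls, and 4.2 and 3.65 in Y402F controls. The lowest mutant lay above the highest control by more than 2-fold. Whether reads of Kpna2 were divided between loci was not measured in the controls, and in the mutants only the whole counts speak to it. The pooled difference was 1.54 (SE 0.14, limma adjusted p = 4.83e-05), and each line had nearly the same value, 1.55 in KO and 1.53 in Y402F. Its length in the mutant tables was 1.01 times that of the longest of its 7 reference transcripts. Zbed4, a BED-type zinc finger gene whose lengths also matched, was at 2.94 and 2.03 in KO, 3.44 and 2.61 in Y402F, and 0.651 to 1.09 scaled FPKM in the controls.

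Mmp17, a membrane-anchored metalloproteinase, and Gpr37, an orphan receptor of oligodendrocytes, were also among these rises. Mmp17 was at 85.4 and 92.6 in KO, 75.5 and 79.0 in Y402F, and 33.0 to 43.5 scaled FPKM in the controls. Gpr37 was at 28.1 and 33.0 in KO, 28.1 and 25.8 in Y402F, and 12.3 to 14.6 in the controls. The ratio of mutant-table to reference length was 0.54 for Mmp17 and 0.64 for Gpr37. Atg12, a ubiquitin-like protein of autophagosome formation, was at 23.3 to 25.3 in the mutants and 9.62 to 11.4 in the controls, with a length ratio of 0.52.

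Zbtb1, a BTB zinc finger gene, was at 3.18 to 4.33 scaled FPKM in the mutants and 0.886 to 1.29 in the controls. Mars2, the mitochondrial methionyl-tRNA synthetase, was at 2.39 to 3.69 and 0.861 to 1.11, and Gdf10, a ligand of the TGF-beta family, at 4.66 to 6.91 and 1.99 to 3.28. These 3 genes have 1 reference transcript each, and the mutant tables used 0.33, 0.26 and 0.50 of its length. Over all 25 long single-copy genes with 1 reference transcript and a mutant-table length below 1/1.2 of it, the median difference was 0.41. Ackr3, an atypical chemokine receptor, was at 9.25 to 12.4 in the mutants and 4.08 to 5.64 in the controls, and Carnmt1, a carnosine methyltransferase, at 3.33 to 4.69 and 1.21 to 1.93. Arc and Egr1, the other 2 of the 12, are described with the immediate early genes.

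**Figure D2:**
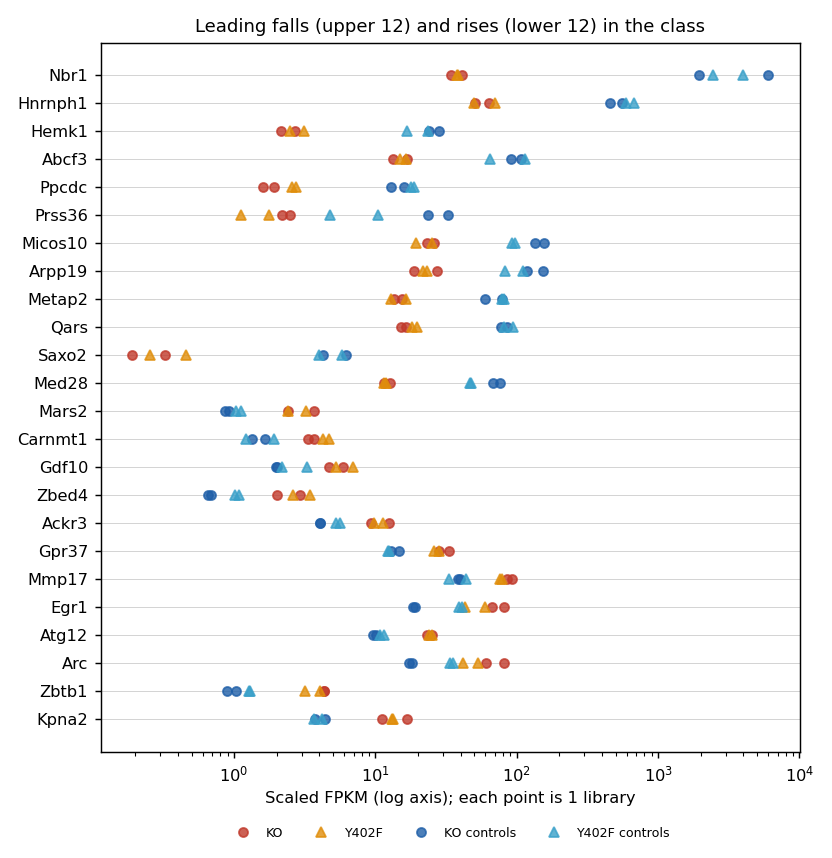
Scaled FPKM of the 12 largest shared falls and 12 largest shared rises among the long single-copy genes, 1 point per library, on a log axis. Nbr1 mutants lie between 34.4 and 40.8 and its controls between 1948 and 5987, while Kpna2 mutants lie between 11.2 and 16.8 and its controls between 3.65 and 4.37.

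The single-transcript genes moved as a block rather than gene by gene. Of the 218 tested, 115 were called higher and 1 lower, and their median pooled difference was 0.33 with a median absolute deviation of 0.13. Relative to the mean of the 4 controls, their median was 0.33 in both KO libraries, 0.32 and 0.36 in Y402F, and between -0.04 and 0.03 in the controls. Every mutant library thus carried nearly the same shift. The median level of these genes was 6.94 scaled FPKM. Across the 218 genes, Pearson's r between the KO and the Y402F difference was 0.27, against 0.78 across the long single-copy genes; genes share libraries and tables, and both values are descriptions.

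**Figure D3:**
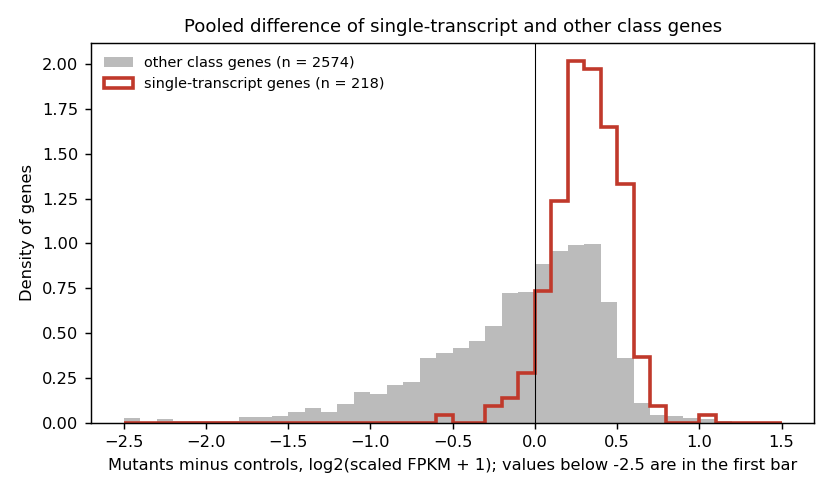
Density of genes by pooled difference on the log2(scaled FPKM + 1) scale for the 218 single-transcript genes (red line) and the other long single-copy genes (grey, class genes in the legend); the first bar also holds lower values. The red distribution is narrow and centred at 0.33, and the grey one reaches to the left of -2.5.

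A scaling on the single-transcript genes, chosen after their shift was seen, set their median near 0 and moved the median of all tested genes to -0.35. The median-of-ratios scaling had that median at 0.00. Over all tested genes this scaling called 730 genes higher (5.66%) and 6319 lower (49.0%), so the split between higher and lower depends on the scaling. Among the long single-copy genes it called 52 higher and 1247 lower, and 1061 were shared changes where 44.8% of all tested genes were. Scaling FPKM to an equal total over the joined genes (equal-total scaling) moved the median of all tested genes in the other direction, to 1.30. That total includes the noncoding RNA Bc1, at 12539 to 23165 scaled FPKM in the mutants and 504680 to 1014300 in the controls. The part of Bc1 in values under this scaling was not tested. Directions of single genes below are relative to the median gene unless another scaling is named. Of the 1060 shared changes in long single-copy genes, 537 were shared in the same direction under both the median-of-ratios and the single-transcript scaling, 42 higher and 495 lower, and 6 turned direction. Under the single-transcript scaling 4.82% of all tested genes were shared rises and 39.9% shared falls.

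Under the single-transcript scaling 15 of the 218 single-transcript genes were called, 5 higher and 10 lower, a share of 6.88% where 54.7% of all tested genes were called. Of the 15, 10 were shared changes, the 5 rises and 5 of the falls. Chgb, which encodes the granin chromogranin B of dense-core vesicles (chr2:132781278-132795079), was at 316 and 314 scaled FPKM in KO and at 343 and 297 in Y402F. KO controls had 186 and 189 and Y402F controls 207 and 201. Its difference was 0.69 (SE 0.06, limma adjusted p = 3.48e-05), and 0.29 (limma adjusted p = 0.00435) under the single-transcript scaling.

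Enc1, a kelch-family actin-binding protein of neurons (chr13:97241105-97253034), was at 272 and 279 in KO, 283 and 275 in Y402F, 152 and 156 in KO controls, and 183 and 184 scaled FPKM in Y402F controls. Mutants spanned a narrow range and the controls differed by line. Its difference was 0.72 (SE 0.05, limma adjusted p = 9.21e-06), and 0.31 (limma adjusted p = 0.000852) under the single-transcript scaling. Both genes rested on 4631 to 7498 expected counts per mutant library. Dclk3, a doublecortin-like kinase, was at 7.89 to 9.39 in the mutants and 3.69 to 5.40 in the controls, and Pard6b, a cell polarity protein, at 1.65 to 2.10 and 0.707 to 1.16. The unnamed gene C630043F03Rik was at 5.07 to 5.55 in the mutants and 2.05 to 2.39 in the controls, and was the only one of these 5 rises called in each line under both scalings, a rule that 3.15% of all tested genes met as rises under the single-transcript scaling.

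Gpr101, an orphan receptor, was the only single-transcript gene called lower under both scalings. It was at 1.13 and 0.944 in KO, 0.794 and 1.64 in Y402F, 2.45 and 1.81 in KO controls, and 2.31 and 2.07 scaled FPKM in Y402F controls. The mutant libraries held 24 to 51 expected counts of it. Its difference of -0.58 (limma adjusted p = 0.0229) lost the call without KO replicate 2, without KO control replicate 1, without Y402F replicate 1 or without Y402F control replicate 1. Of the other shared falls under the single-transcript scaling, Ypel2, Fam163a and the co-chaperone Stip1 had differences of -0.06, -0.01 and 0.11 under the median-of-ratios scaling and were not called there.

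Genes that failed a condition gave the largest differences of the pooled comparison. Small RNAs, pseudogenes and genes with only a clone or model name are left out here. Npcd, which overlaps Nptxr, was at 193 to 215 scaled FPKM in the mutants and at or below 0.478 in the controls. Chn1os3, Fam219aos and Gdf1, which overlap Chn1, Fam219a and Cers1, were at 45.6 to 65.5 in the mutants and at or below 1.27 in the controls. In each of these 4 an overlapping gene shares part of its position, and to which member each table gave the shared reads was not tested. Gstp2, a glutathione transferase with a near-identical neighbour, was at or below 0.76 in the mutants and at 168 to 217 in the controls. Tuba1c, an alpha tubulin with close paralogs, was at or below 1.55 and at 79.2 to 92.7. Snurf, a short upstream reading frame of the Snrpn transcript, was at 24.1 to 60.8 and 1466 to 1994, and the mutant tables used 9.12 times its reference length. Bc1, a neuronal noncoding RNA of 168 bases, had pooled differences of -6.10 in KO and -4.92 in Y402F.

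Immediate early genes, which neurons transcribe within minutes of activity, held 15 long single-copy members. In the pooled comparison 10 (beside 23.3% of all tested genes) were called higher and 0 lower, with 5 shared changes, and their median difference was 0.57, beside 0.05 over the long single-copy genes. That median was positive under each of the 5 scalings, and lowest, at 0.20, under the single-transcript scaling. There 4 of the 15 were called higher and 2 lower, beside 5.66% and 49.0% of all tested genes. The pooled value joins 2 lines with different counts of calls: the median was 0.93 in KO, where 11 were called higher and 0 lower, beside 37.6% of all tested genes called (16.7% higher and 21.0% lower). In Y402F the median was 0.10, with 2 called higher and 1 lower, beside 32.4% of all tested genes (13.02% higher and 19.4% lower). The test of the difference between the lines called 0.0310% of all tested genes and 0 of the 15. By line, the single-transcript scaling called 6 of the 15 higher and 0 lower in KO, beside 4.91% and 39.0% of all tested genes. In Y402F it called 0 higher and 3 lower, beside 4.13% and 36.8%.

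Arc, which encodes a capsid-like protein that regulates AMPA receptor endocytosis (chr15:74669083-74672570), was at 61.0 and 81.4 scaled FPKM in KO and at 53.5 and 41.4 in Y402F. KO controls had 17.3 and 18.2 and Y402F controls 33.7 and 35.6. All mutants lay above all controls, and the KO controls lay below the Y402F controls (difference -0.93, limma adjusted p = 0.0193). Between the mutants, KO minus Y402F was 0.57 and was not called (limma adjusted p = 0.9996). KO differed from its controls by 1.93 (limma adjusted p = 6.32e-05). The Y402F difference of 0.43 did not pass (limma adjusted p = 0.0779), nor did the gap of 1.5 between the lines (limma adjusted p = 0.0998).

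Egr1, a zinc finger transcription factor, had the same order of groups. It was at 66.2 and 81.6 in KO, 59.1 and 43.3 in Y402F, 19.2 and 18.6 in KO controls, and 39.1 and 40.7 scaled FPKM in Y402F controls. Nr4a1, a nuclear receptor, was at 35.2 and 45.4, 30.1 and 24.9, 13.1 and 14.8, and 23.2 and 24.2 in the same order. KO controls minus Y402F controls was -1.04 for Egr1 (limma adjusted p = 0.0143) and -0.73 for Nr4a1 (limma adjusted p = 0.0321). For both genes the mutants lay above the controls. Y402F minus its own controls was not called, at 0.34 for Egr1 (limma adjusted p = 0.139) and 0.20 for Nr4a1 (limma adjusted p = 0.352). Under the single-transcript scaling these 2 values were -0.05 and -0.18. The pooled differences of Egr1 and Nr4a1, 1.12 and 0.83, were called. They were no longer shared under the single-transcript scaling, nor was that of Arc.

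Npas4, a transcription factor induced by calcium influx, was at 4.30 and 8.39 in KO, 2.03 and 1.28 in Y402F, 0.988 and 0.899 in KO controls, and 1.99 and 1.92 scaled FPKM in Y402F controls. Fos was at 7.88 and 12.3, 4.07 and 3.84, 2.75 and 1.6, and 7.46 and 5.32 in the same order. Both were called in the pooled comparison (differences 0.85 and 0.62), although only KO was above its controls. Egr4 and the antiproliferative gene Btg2 were also called in KO and not in Y402F, at 1.29 against 0.10 and 1.00 against 0.14. Egr2 was the member with opposite calls, 0.93 in KO and -1.52 in Y402F, with Y402F controls at 3.73 and 5.43 and the other 6 libraries at 0.528 to 2.21. These 5 were named after their values were seen. The pooled call of Fos was lost without KO replicate 2, KO control replicate 2, either Y402F library or Y402F control replicate 2, and that of Btg2 without KO control replicate 1 or either Y402F library.

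Ier5, a regulator of heat shock transcription, differed from that pattern. It was at 13.3 and 13.1 in KO, 13.5 and 12.7 in Y402F, 8.25 and 9.21 in KO controls, and 8.40 and 8.04 scaled FPKM in Y402F controls. Both lines were called against their own controls, at 0.55 and 0.61. Ier5 is a single-transcript gene, and under the single-transcript scaling its difference of 0.20 was not called (limma adjusted p = 0.0937).

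**Figure D4:**
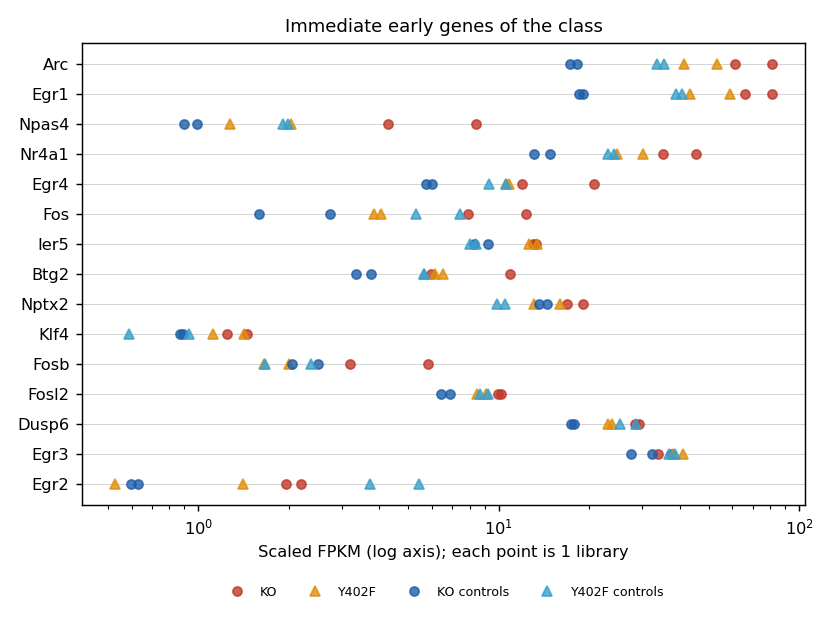
Scaled FPKM of the 15 immediate early genes among the long single-copy genes, 1 point per library, on a log axis. For Arc the 2 KO libraries lie at 61.0 and 81.4 and the KO controls at 17.3 and 18.2, with Y402F and its controls between them, while the 4 mutants of Ier5 lie together at 12.7 to 13.5.

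The promoters of members that rose with activity genes are printed because many such genes carry the cAMP response element, TGACGTCA, or its core TGACG, to which CREB binds. The 250 bases before the transcription start come from RefSeq on GRCm38.p6, 5′ to 3′ on the strand of the gene, with each TGACG or its reverse complement CGTCA in capitals. Windows were searched for 11 of the 15 members, 5 for Egr2 and 1 for each other member, and 8 of the 11 held TGACG on either strand in at least 1 window. Of all 32851 windows of that length 17.8% held it and 1.55% held TGACGTCA, in which 2 such cores overlap; these shares count single windows and the 8 of 11 counts genes, so they are not on the same base. The windows shown lie at chr15:101266596-101266845 (Nr4a1, plus strand), chr19:4989972-4990221 (Npas4, minus strand), chr6:85513590-85513839 (Egr4, minus strand), chr1:134079156-134079405 (Btg2, minus strand) and chr1:155099637-155099886 (Ier5, minus strand).
Nr4a1: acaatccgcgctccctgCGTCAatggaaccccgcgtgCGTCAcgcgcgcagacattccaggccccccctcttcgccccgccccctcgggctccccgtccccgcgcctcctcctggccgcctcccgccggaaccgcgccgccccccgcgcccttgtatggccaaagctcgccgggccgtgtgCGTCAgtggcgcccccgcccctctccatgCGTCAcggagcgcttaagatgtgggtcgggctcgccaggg
Npas4: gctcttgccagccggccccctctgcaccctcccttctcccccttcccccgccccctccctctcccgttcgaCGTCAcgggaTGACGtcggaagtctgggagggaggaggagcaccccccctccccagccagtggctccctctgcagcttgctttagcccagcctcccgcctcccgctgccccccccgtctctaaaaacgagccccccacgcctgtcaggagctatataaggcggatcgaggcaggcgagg
Egr4: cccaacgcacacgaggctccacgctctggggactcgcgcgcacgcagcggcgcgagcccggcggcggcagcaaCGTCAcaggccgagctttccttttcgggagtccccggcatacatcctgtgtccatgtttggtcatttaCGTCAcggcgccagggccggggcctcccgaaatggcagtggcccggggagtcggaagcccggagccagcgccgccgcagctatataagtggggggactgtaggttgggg
Btg2: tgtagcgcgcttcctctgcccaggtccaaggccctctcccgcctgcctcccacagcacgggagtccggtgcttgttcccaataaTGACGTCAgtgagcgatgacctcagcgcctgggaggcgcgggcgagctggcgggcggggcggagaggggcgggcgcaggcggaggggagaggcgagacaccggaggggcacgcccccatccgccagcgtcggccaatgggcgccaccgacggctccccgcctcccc
Ier5: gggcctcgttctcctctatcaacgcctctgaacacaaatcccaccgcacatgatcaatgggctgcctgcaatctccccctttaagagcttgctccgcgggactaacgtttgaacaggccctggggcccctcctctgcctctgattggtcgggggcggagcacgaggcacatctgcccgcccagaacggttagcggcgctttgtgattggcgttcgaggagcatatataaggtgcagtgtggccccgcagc
Nr4a1 held 4 cores, Npas4 and Egr4 held 2 each, and Btg2 held 1 full element. Ier5, which was called higher in both lines, held none of these letters in this window. A match is a description of the sequence, and binding was not measured.

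**Figure D5:**
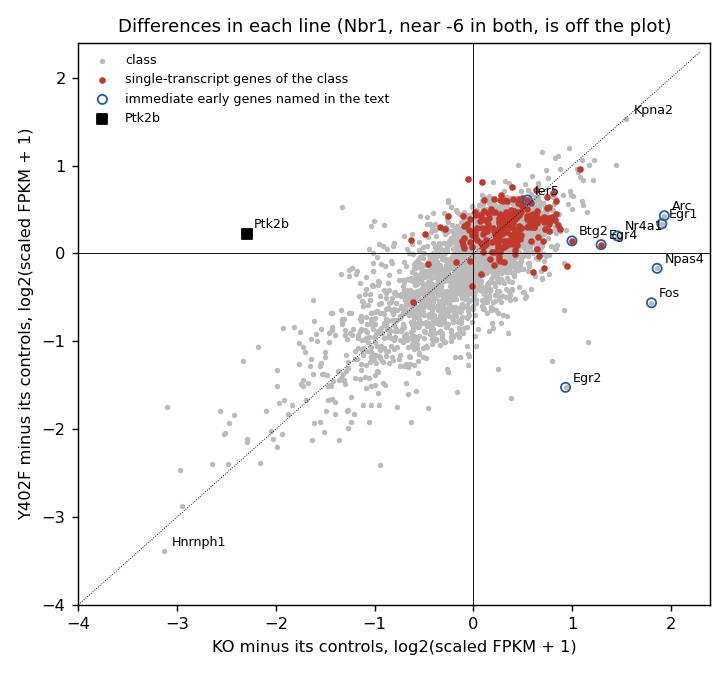
Difference in KO (x axis) and in Y402F (y axis), each against its own controls on the log2(scaled FPKM + 1) scale, for the long single-copy genes (the class in the legend); the dotted line marks equal differences. Most genes lie along that line (Pearson's r of 0.78), the single-transcript genes (red) form a cluster above 0 on both axes, and Ptk2b and the circled immediate early genes other than Ier5 lie away from it; Nbr1 is off the plot.

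Known partners and substrates of Pyk2 held 11 long single-copy members, of which 2 were called higher and 5 lower, with a median difference of -0.13. Over all tested genes 23.3% were called higher and 26.9% lower. Under the single-transcript scaling 0 of the 11 were called higher and 7 lower, where 49.0% of all tested genes were called lower. That median was 1.11 under equal-total scaling and negative under the other scalings. Pitpnm1, a phosphatidylinositol transfer protein that binds Pyk2, was at 36.1 and 36.9 in KO, 29.8 and 38.4 in Y402F, 68.1 and 78.1 in KO controls, and 73.7 and 69.0 scaled FPKM in Y402F controls. All mutants lay below all controls, and the pooled difference was -1.02 (SE 0.09, limma adjusted p = 5.20e-05). Dlg4, which encodes PSD-95, was at 382 and 415, 370 and 404, 654 and 628, and 548 and 521 in the same order, with a difference of -0.58 (SE 0.06). Tgfb1i1, the focal adhesion adaptor Hic-5, was at 2.39 to 3.25 in the mutants and 6.44 to 7.28 in the controls. Csk, the kinase that inhibits Src family kinases, was at 9.02 to 10.9 and 15.7 to 24.0. All 4 have between 9 and 22 reference transcripts, and all 4 had differences above 0 under equal-total scaling.

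Integrin and focal adhesion genes held 9 long single-copy members, with 1 called higher and 2 lower, beside 50.2% of all tested genes called in either direction. The single-transcript scaling called 0 higher and 5 lower, beside 5.66% and 49.0% of all tested genes. Flna, the actin crosslinker filamin A, was at 5.05 to 5.90 scaled FPKM in the mutants and 9.88 to 18 in the controls. Tns2, a tensin of focal adhesions, was at 3.76 to 5.26 and 7.42 to 10.7. Both fell in each line, with 15 and 9 reference transcripts, and both were above 0 (0.23 and 0.39) under equal-total scaling. Itga3, the integrin alpha 3 chain, was the rise, at 3.01 to 3.45 in the mutants and 1.75 to 2.85 in the controls (difference 0.38).

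Around Ptk2b, the 10 nearest tested genes on either side held 10 long single-copy genes, of which 5 were called higher and 2 lower, with a median difference of 0.24. Over all tested genes 23.3% were called higher and 26.9% lower. The median was -0.13 under the single-transcript scaling, with 0 called higher and 3 lower, beside 5.66% and 49.0% of all tested genes. Dpysl2, a microtubule-associated protein of axon growth, was at 24.7 and 24.4 in KO, 26.5 and 26.5 in Y402F, and 17.0 to 18.4 scaled FPKM in the controls. Extl3, a glycosyltransferase of heparan sulfate synthesis, was at 26.1 to 29.5 in the mutants and 18.6 to 20.3 in the controls, and Bnip3l, a mitophagy receptor, at 34.2 to 42.7 and 24.8 to 32.9. None of these 3 rises was called under the single-transcript scaling. Ppp2r2a, a regulatory subunit of protein phosphatase 2A, was 1 of the 2 called lower, at 25.9 to 29.5 in the mutants and 35.6 to 40.8 in the controls (difference -0.49, limma adjusted p = 0.000903), and was at 0.98 under equal-total scaling.

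Synaptic, channel and splicing genes moved in both directions, in families of few members beside 23.3% of all tested genes called higher and 26.9% lower. Gabrb2, a GABA receptor subunit with 5 reference transcripts, rose, at 23.0 to 31.9 scaled FPKM in the mutants and 12.7 to 16.8 in the controls. Of 8 potassium channel genes, 5 were called higher and 1 lower; Kcna1, the axonal channel Kv1.1, was at 27.8 to 39.5 and 14.4 to 18.3, with a mutant-table length 2.23 times the reference length. Of 8 neurexin, neuroligin and related adhesion genes, 5 were called higher and 1 lower, and Slitrk1, with 1 reference transcript, was at 25.9 to 32.5 and 14.5 to 17.1. Of 6 postsynaptic scaffold genes, 2 were called higher and 3 lower, and Baiap2, an adaptor of Rac signalling with 9 transcripts, was at 88.8 to 97.2 and 132 to 192. SR and hnRNP splicing factors held 12 members, with 3 called higher and 5 lower. Luc7l3 was at 12.9 to 18.3 in the mutants and 37.0 to 57.0 in the controls, and Hnrnpa2b1 at 96.5 to 146 and 217 to 310; under equal-total scaling their differences were 0.03 and 0.37. The medians of the potassium channel and adhesion genes, 0.41 and 0.36, were 0.02 and -0.04 under the single-transcript scaling. Under that scaling 5.66% of all tested genes were called higher and 49.0% lower. The calls there were 1 higher and 3 lower for potassium channels and 1 and 1 for adhesion genes. Scaffolds had 0 and 3, and splicing factors 1 and 8. Under equal-total scaling Baiap2 was at 0.71.

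Other gene lists with at least 2 called members were small, and their counts stand beside 23.3% of all tested genes called higher and 26.9% lower. All 4 sodium, calcium and HCN channel genes were called higher, among them Scn4b, a sodium channel beta subunit, at 5.67 to 6.95 scaled FPKM in the mutants and 3.77 to 4.31 in the controls. Of 7 kinesin and dynein genes 4 were called higher and 0 lower, among them the axonal transport motor Kif5a at 483 to 499 and 387 to 403. After the single-transcript scaling 0 of these 11 were called higher and 1 was called lower. That scaling called 5.66% of all tested genes higher and 49.0% lower. Of 6 chromatin regulators 1 was called higher, Smarcc2 of the BAF complex, at 90.7 to 94.4 and 73.0 to 75.4, and 2 lower, among them the histone methyltransferase Ezh1 at 21.5 to 26 and 30.4 to 36.3. The 7 heat shock and unfolded protein genes included 1 rise, the chaperone Hsp90ab1 at 742 to 783 and 574 to 593, and 3 falls, among them the calcium-binding chaperone Canx at 66.1 to 74.7 and 92.3 to 104. Of 6 cholesterol genes 1 was called higher and 2 lower, among them Dhcr7, the last enzyme of cholesterol synthesis, at 14.1 to 19.7 and 27.6 to 50.5. Of 6 circadian clock genes 2 were called higher and 0 lower. Under the single-transcript scaling none of these chromatin, heat shock, cholesterol and clock genes was called higher; 3 of the chromatin, 6 of the heat shock, 2 of the cholesterol and 1 of the clock genes were called lower, and the clock median went from 0.15 to -0.21.

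Of 7 sets of cell type or region markers with at least 4 long single-copy members, 3 had calls in both directions (23.3% of all tested genes were called higher and 26.9% lower). Under the single-transcript scaling, where these shares were 5.66% and 49.0%, none of the 7 sets had a member called higher. Hippocampal pyramidal and dentate markers held 9 long single-copy genes, 4 called higher and 1 lower (0 and 1 under the single-transcript scaling, where the median went from 0.42 to 0.02), among them Calb1, the calbindin of granule cells, at 36.7 to 46.2 scaled FPKM in the mutants and 23.6 to 28.9 in the controls. Endothelial and pericyte markers held 8, with 6 called higher and 0 lower; Kdr, a VEGF receptor, was at 2.32 to 3.54 and 1.54 to 1.94. That list's median of 0.36 became 0.04 under the single-transcript scaling, and 0 of its 8 members were called there. Of 9 astrocyte markers 1 was called higher and 2 lower, with a median difference of 0.15. Under the single-transcript scaling 0 were called higher and 7 lower, and the median was -0.25. Aldoc, an aldolase, was at 313 to 368 in the mutants, 1420.4 and 1473 in KO controls and 948 and 922 in Y402F controls, while Gjb6, a connexin, was at 17.7 to 21.8 and 27.8 to 52.4. Of 8 oligodendrocyte markers 2 were called higher and 2 lower (0 and 2 under the single-transcript scaling). Their median difference was 0.17, and -0.21 under the single-transcript scaling. The falls were Trf, the iron carrier transferrin, at 64.5 to 91.1 and 126 to 221, and Mag, a myelin glycoprotein, at 56.2 to 79.1 and 87.7 to 106. Interneuron markers held 2 long single-copy members, 1 called higher (difference 0.26) and 1 lower (0 and 1 under the single-transcript scaling). The fall was Ndnf, a marker of neurogliaform interneurons, at 2.76 to 4.04 in the mutants and 7.37 to 13.4 in the controls. Under equal-total scaling, Gjb6, Trf and Mag were above 0, at 0.61, 0.39 and 0.90. Microglia markers held 2 members and none was called.

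Libraries differed in ways that the genotype labels do not name. The 14 markers of choroid plexus matched by symbol summed to 767 scaled FPKM in Y402F replicate 2 and to 1167 and 1195 in its 2 controls. Their sum lay between 44.2 and 58.3 elsewhere, and none of the 9 that were tested is a long single-copy gene. Xist was at 25.5 and 40.2 scaled FPKM in KO replicate 1 and Y402F replicate 1, at 3.24 and 3.95 in the KO controls and at or below 0.295 in the other 4 libraries, so each mutant pair held both patterns and each control pair held 1. The part of either in the pooled differences was not tested.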

How the data were processed

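RNA-seq of mouse hippocampus was deposited as 1 table per library. Per the labels' protocols total RNA was extracted with Trizol, and per the submitters' processing notes Bowtie 1, HISAT, Cufflinks and mm9 were used, in roles that these notes do not state. The 4 mutant tables hold the authors' expected counts (estimated reads per gene, used here for depth and for the whole-count condition) and FPKM, and the 4 control tables hold the authors' FPKM with no counts. The control positions lie on GRCm38, and 99.8% of the joined genes found in GENCODE M21 share a start or end with it. Coordinates are GRCm38.

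Tables were joined by symbol (17596 genes), filtered at a mean of 1 FPKM (12897 genes), divided by a median-of-ratios factor and tested as log2(value + 1) with limma 3.58.1 in R 4.3.3, with 4 groups in 1 model, a contrast of the 2 mutant means against the 2 control means, and Benjamini-Hochberg adjustment over all tested genes. The script was tested on simulated data. Joins and counts used pandas 2.3.3 in Python 3.11.15 and plots matplotlib 3.10.9. FPKM are not counts, so no count model was used, and a control depth behind a value is unknown. FPKM of the joined genes made up 98.2 to 98.3% of the mutant totals and 37.9 to 48.0% of the control totals. Equal-total scaling used the sum over the joined genes only, so FPKM outside them did not enter it. Bc1 is a joined gene, and its level in each library is part of that sum and so of every value under this scaling. Alternatives were other scalings, filters, pseudocount, conditions on the genes, model terms and left-out libraries; the scaling on single-transcript genes was added after the data were seen.

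Named genes were Ptk2b, Ptk2, the 12 largest shared rises and falls among the long single-copy genes, 4 of each outside them and up to 4 members per gene list with the smallest p. The members, lists and rule were chosen with earlier results of these data known. Some results under this rule are not reported here.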

Additional observations from a re-analysis of the deposited data

Results flagged for a closer look

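The KO and Y402F differences of Ptk2b differed by -2.52 on the log2 scale (limma adjusted p = 0.000406), the only long single-copy gene among the 4 genes called by the test of the difference between the lines.

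In 9 of 152 groups of 4 libraries that were checked, 1 library stood apart from the other 3 by more than Dixon's critical share of the range of the group, a limit that about 1 group in 20 passes by chance. Of the 9, 4 came from a high KO replicate 2 or Y402F replicate 2: Egr4 at 20.8 and Btg2 at 10.9 scaled FPKM in KO replicate 2, Extl3 at 29.5 in KO replicate 2, and Sod3, an extracellular superoxide dismutase, at 8.09 in Y402F replicate 2. Among the controls, Gdf10 at 3.28 and Npcd at 0.478 were high in Y402F control replicate 1, and Gdf1 at 1.27 was high in KO control replicate 1. Tns2 at 7.42 was low in Y402F control replicate 1, and Metap2 at 59.2 was low in KO control replicate 2.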

How the results depend on the processing

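Equal-total scaling over the joined genes called 11729 genes, with 10536 shared changes, 2347 of them in long single-copy genes, 2197 of these called in each line and 215 in single-transcript genes. It called 11696 genes in KO, 10301 in Y402F and 3618 for the difference between the lines, and it turned Ptk2b to 0.47. It also turned Ptk2 to 1.15, Gpr101 to 0.34, Ypel2 to 1.25, Fam163a to 1.28, Egr2 to 0.57, Pitpnm1 to 0.47, Dlg4 to 0.94, Tgfb1i1 to 0.25, Csk to 0.57, Ppp2r2a to 0.98, Flna to 0.23, Tns2 to 0.39, Baiap2 to 0.71, Luc7l3 to 0.025, Hnrnpa2b1 to 0.37, Gjb6 to 0.61, Trf to 0.39 and Mag to 0.90. The shift of the median of all genes by 1.30 is part of each of these values.

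A length minimum of 3000 bases left 665 shared changes and 300 called in each line, because fewer genes qualify. Without the condition on overlap there were 2776 and 1477, because more do. The difference between the lines called 2 genes at a mean of at least 5 FPKM and 7 without a filter. Shared single-transcript genes numbered 56 without scaling and 10 when scaled on these genes, where Stip1 was at -0.30. Without scaling Stip1 was at -0.036. Quantile normalization gave 0.016 for Fam163a and 0 for Bc1. Ptk2b kept -1.04 but lost its call with only the 2 pools in the model (limma adjusted p = 0.170) and with pool plus line (limma adjusted p = 0.0665), where the unequal lines enter the residual spread.

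Leaving out 1 library at a time gave 5391 to 5820 called genes, 4796 to 5167 shared changes, 966 to 1024 in long single-copy genes, 340 to 404 called in each line and 80 to 94 in single-transcript genes. It gave 3096 to 4794 called in KO, 2869 to 4150 in Y402F, 6 to 16 for the difference between the lines, and -1.11 to -0.96 for Ptk2b. The count called in each line was 340 both without KO replicate 2 and without Y402F replicate 1, the KO count was 3096 without KO replicate 1, and the difference between the lines called 7 genes without KO replicate 2, 8 and 14 without KO control replicates 1 and 2, 16 and 15 without Y402F replicates 1 and 2, and 15 without Y402F control replicate 2. Ypel2 ranged from -0.18 without KO control replicate 1 to 0.066 without KO control replicate 2, and Fam163a from -0.086 without KO replicate 2 to 0.077 without KO replicate 1.

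The main model held no term for replicate number. Deviations of replicate 1 from the group means correlated at 0.204 between KO and Y402F and at -0.0308 to 0.0488 between the other groups. Same-numbered mutant libraries thus varied together to a small degree. With the replicate block 6499 genes were called, 5123 were shared, 1060 of these in long single-copy genes, and Ptk2b kept its call (limma adjusted p = 2.55e-05). Of the values of 74 named genes under the alternatives, 1325 kept direction and side of the threshold, 30 lost and 10 gained a call, and 26 turned. Control depth is unknown, which limits what can be said of low genes.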

Other observations

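Of the 2792 long single-copy genes, 10 were higher in the mutants and called in each line under both the median-of-ratios and the single-transcript scaling. The single-transcript scaling alone also gave 10, or 0.36% of the long single-copy genes, beside 3.15% of all tested genes and 3.92% of those outside the long single-copy genes. They were Kpna2, Zbtb1, Atg12, Mmp17, Gpr37, C630043F03Rik, Zbed4, Nkain1, Sod3 and Set. Nkain1, a membrane protein that interacts with the sodium pump, was at 36.9 and 42.9 scaled FPKM in KO, 31.8 and 34.5 in Y402F, 21.7 and 22.2 in KO controls, and 15.2 and 15 in Y402F controls. Set, a histone chaperone and inhibitor of protein phosphatase 2A, was at 60.8 to 71.9 in the mutants and 35.8 to 42.5 in the controls. Sod3 was at 6.15 to 8.09 in the mutants and 2.78 to 3.20 in the controls. These 3 genes were named after their values were seen.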
